A study of Brassica napus with 17 samples.

Results

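The distal part of chromosome C04 of Brassica napus was followed through 17 RNA-seq libraries of microspore cultures. It was taken as the C04 gene IDs numbered from BnaC04g28430D to BnaC04g54170D whose summed count over the libraries reached 10. Of 2575 IDs in that number range, 1874 met the minimum, out of 75664 IDs that met it among all 101040 in the series, and 326 of the 2575 had no count in any library. The range was chosen by expression values of neighbouring genes in these same libraries, and which comparison set its ends is not given in the sources used here. All values over the segment as a whole are therefore given as a description, without a test.

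B. napus is an allotetraploid oilseed crop that carries an A and a C subgenome, so most of its genes exist as near-identical copies on an A and a C chromosome. A04 is the counterpart of most of C04, and the start of A05 is the counterpart of the start of C04. Microspores, the immature pollen grains, normally develop into pollen. In this species they can be switched to embryo formation by heat in culture, and the histone deacetylase inhibitor trichostatin A (TSA) adds to that switch by keeping histones acetylated. The genes are taken here in the order of their ID numbers, which need not be their order on the chromosome, least of all for the last numbers of the range. No source used here pairs the IDs with gene products, so no role is given for any of them. For the same reason embryo and pollen markers could not be looked up to check the cultures against their labels.

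All cultures were started from late unicellular microspores of the doubled haploid line DH12075 with a LEC1-GFP reporter, and per the labels each sample pooled very many microspores. Heat with TSA, given to induce callus, had 3 libraries at day 2 (0.5 µM), 3 at day 4 and 2 at day 8 (0.05 µM). The day 4 dose is 0.5 µM in the titles and 0.05 µM in the treatment field. Heat alone, given to induce embryos, had 3 libraries at day 2 and 3 at day 4, and untreated microspores had 3 at day 0. Heat lasted 24 hours at 33 °C, after which TSA was washed out and cultures stood at 25 °C for 1, 3 or 7 days. Sampled cultures hold mixed cells, so fewer cells of a type and less RNA per cell cannot be told apart.

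Levels are CPM, counts relative to the library's own total, with totals scaled by TMM, a method that equalises the bulk of genes between libraries. Library totals ran from 2716279 to 31407037 counts, and 3 counts stood for 0.0809 to 0.787 CPM, so lower levels are not resolved. Of the 1874 genes, 1188 had a mean over the 6 groups of at least 1 CPM, 450 of at least 10 CPM and 28 of at least 100 CPM. In all 6 groups 652 genes reached 1 CPM, and in at least 1 group 1399 did. The labels' replicates are described as biological, and p-values measure the spread between these samples. That spread was uneven. A mean chi-square per gene, 1 at sampling noise, was 1.796 between heat-only day 2 replicates 2 and 3. Their pairs with replicate 1 stood at 34.49 and 32.4. Day 0 pairs lay from 2.243 to 3.518, and all other pairs from 9.343 to 44.04. Whether such close replicates are separate cultures was not tested. At day 2, replicate 2 minus replicate 3 is thus a narrow yardstick. The 1874 genes held between 1.257% of the counts, in heat-only day 4 replicate 1, and 3.349%, in TSA day 8 replicate 2.

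The feature that ran through most of the segment was a lower level in replicate 1 of both heat-only groups. Among the 1188 genes at 1 CPM or more, the median log2 difference of replicate 1 from the mean of replicates 2 and 3 was -0.24 at day 2 and -0.29 at day 4, where all 49664 genes of that level stood at -0.01 and -0.04. Over all 1874 genes, low ones included, the medians were closer to 0, at -0.12 and -0.20, where all genes stood at 0 and -0.01. These differences, like all between libraries here, are of log2(CPM + 0.5). In windows of 30 successive genes, the last of them with 18, 40 of 40 windows lay below 0 on both days. Their medians were -0.22 at day 2 and -0.27 at day 4. Replicates 2 and 3, set against each other in the same windows, had medians of 0.01 on both days. Over all 1874 genes 60 of 62 windows lay below 0 at day 2 and 59 at day 4. On all chromosomes other than C04, C02, A05 and A07 there were 1201 windows at 1 CPM or more. Of these, 548 lay below 0 at day 2 and 668 at day 4. In C04 before the range, 38 of 38 windows lay below 0 at day 2 and 37 at day 4. The count of windows thus did not set the segment apart from that part of C04.

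**Figure D1:**
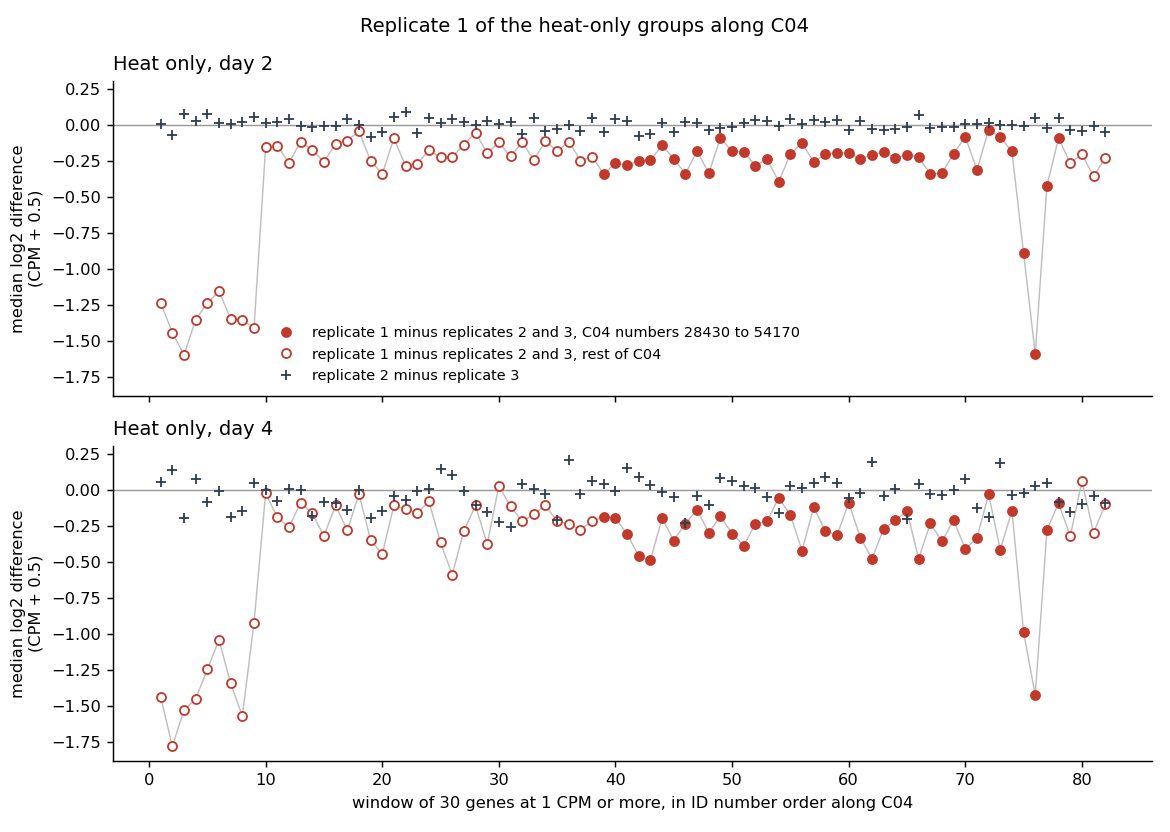
Each point is the median over a window of 30 C04 genes at 1 CPM or more (18 in the last of the segment, 27 in the last before it), in ID order along the horizontal axis; the vertical axis is the log2 difference between replicates of heat-only day 2 (top) and day 4 (bottom). Filled points (the segment) show replicate 1 minus the mean of replicates 2 and 3 and all lie below 0, open points show the same for the rest of C04, and crosses show replicate 2 minus replicate 3.

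The shift was small up to the last numbers. In the 36 windows that end at BnaC04g51510D, the day 2 values lay between -0.39 and -0.03, and the day 4 values between -0.48 and -0.03. Replicate 2 minus replicate 3 lay between -0.07 and 0.07 in those windows at day 2, and between -0.23 and 0.20 at day 4. Below -0.1 lay 35 of the segment's 40 windows (87.5%) at day 2, against none for replicate 2 minus replicate 3, and 36 (90%) at day 4, against 6 (15%). Of 1201 windows on all chromosomes other than C04, C02, A05 and A07, 6.91% lay below -0.1 at day 2 and 25.7% at day 4 in replicate 1. Whole chromosomes other than C04, C02 and A05 had medians between -0.03 and 0.03 at day 2 and between -0.08 and 0.02 at day 4 (16 chromosomes). The chromosomes left out were chosen after seeing the values, because they too stood apart in replicate 1. C02 lay at -0.19 and -0.26 and A05 at 0.08 and 0.1, and the first window of A07 lay at -0.70 and -0.62. The windows kept also hold such a region, on C07, whose lowest window lay at -0.98 and -1.19. A shift of this library pair was thus not particular to C04.

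Gene by gene, 781 of the 1188 (65.7%) were lower in heat-only day 2 replicate 1 than in both other replicates, beside 42.9% of all genes at 1 CPM or more. At day 4 the count was 712 (59.9%), beside 43.3% of all genes. Both were true of 489 genes (41.2%), beside 20.4%. Higher than both others were 238 genes (20%, beside 40.9%) at day 2 and 254 (21.4%, beside 37.0%) at day 4. In replicates 2 and 3 fewer genes than elsewhere were lowest, 17.8% and 15.2% (beside 27.2% and 28.4%) at day 2 and 25.8% and 13.2% (beside 36.2% and 19.2%) at day 4. The other groups were, in replicates 1, 2 and 3, as follows. In TSA day 2, 31.6%, 32.5% and 33.6% were lowest (beside 28.5%, 29.6% and 40.2%), in TSA day 4 38.9%, 35.9% and 23.6% (beside 34.0%, 35.0% and 30.1%), and at day 0 20.5%, 15.8% and 54.9% (beside 22.0%, 16.0% and 55.5%). The counterpart chromosome A04 did not share this: there 38.7% of 1536 genes were lower at day 2, 42.5% at day 4 and 17.9% at both, and the median differences were 0.02 and -0.04. Across the 1188 genes the differences at day 2 and day 4 had a Pearson r of 0.39 and a Spearman rho of 0.22. These are across genes, which are not independent replicates, and over all genes r was 0.28 and rho 0.15.

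No step was seen at the lower end of the range. The C04 genes from number 7000 to the start of the range lay at -0.17 at day 2 and -0.21 at day 4 (854 genes), close to the values inside the range. The first C04 numbers, under 7000, lay far lower, at -1.31 and -1.38 (283 genes). The first A05 numbers, also under 7000, went the other way, at 0.39 and 0.45 (413 genes). At the upper end of the range the shift was weak. The last window at 1 CPM or more, from BnaC04g53710D to BnaC04g54170D, lay at -0.09 on both days. All genes of that level stood at -0.01 and -0.04. With low genes included, the window from BnaC04g53450D to BnaC04g53900D lay at 0 on both days. After the range, 121 genes lay at -0.27 at day 2 and -0.14 at day 4.

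The size of the shift against other genes changed little with the scaling, but its zero moved. With library totals in place of TMM the 1188 genes lay at -0.40 at day 2 and 0.01 at day 4, where all genes lay at -0.17 and 0.24, so that the segment was below all genes by 0.23 on both days. In the libraries of the other groups, the median of the 1188 genes differed from that of their fellow replicates by 0.10 or less. The lowest, -0.10, was in day 0 replicate 3, the shallowest library, where all genes lay at -0.12. The labels name no sequencing run for the heat-only and TSA day 4 libraries. They give the day 0, TSA day 2 and TSA day 8 libraries the same sequencing run. Sequencing run and culture therefore cannot be told apart in replicate 1. Nor can sequencing run and group in TSA against heat-only at day 2, heat-only day 2 against day 0, or TSA day 4 against day 2.

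The same genes were then set against day 0. A stretch of the last numbers, described below, behaved differently and was left out of the following values, which leaves 1123 genes. Their median log2 level minus the day 0 mean, less the same median over all genes, was -0.08 in heat-only day 2 replicate 1, against 0.12 and 0.10 in replicates 2 and 3. At day 4 it was -0.05 in replicate 1, against 0.17 and 0.14 in replicates 2 and 3. Replicates 2 and 3 were above the range of the 16 other chromosomes, whose highest medians were 0.073 in both at day 2, and 0.053 and 0.065 at day 4. That range leaves out C02, which lay at 0.081 and 0.101 at day 2 and at 0.127 and 0.088 at day 4. The C04 genes from number 7000 to the start of the range of IDs lay at 0.097 in both at day 2. At day 4 they lay at 0.104 and 0.11, so this excess was not particular to the segment. Replicate 1 lay below that range at day 2, where the lowest chromosome was at -0.058, and inside it at day 4, where the lowest was at -0.066.

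In cultures with TSA the median of these genes at first moved with that of all genes. Single genes moved far from day 0, as given below. The excess over all genes ran from -0.02 to 0.01 in the 3 libraries of TSA day 2 and from -0.02 to 0.05 in those of TSA day 4. Both TSA day 8 libraries lay at 0.14, above the other chromosomes, whose highest medians were 0.059 and 0.113. The 121 C04 genes after the range of IDs lay at 0.096 and 0.134 there. The 854 from number 7000 to its start lay at -0.009 and -0.004. This excess was thus shared by the IDs after the range and not by those before it. Of the 1188 genes, 306 (25.8%) had their highest group mean in TSA day 8, beside 23.2% of all genes. Heat-only day 4 was highest for 242 (20.4%, beside 19.9%), day 0 for 215 (18.1%, beside 19.8%) and TSA day 2 for 56 (4.71%, beside 6.75%).

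**Figure D2:**
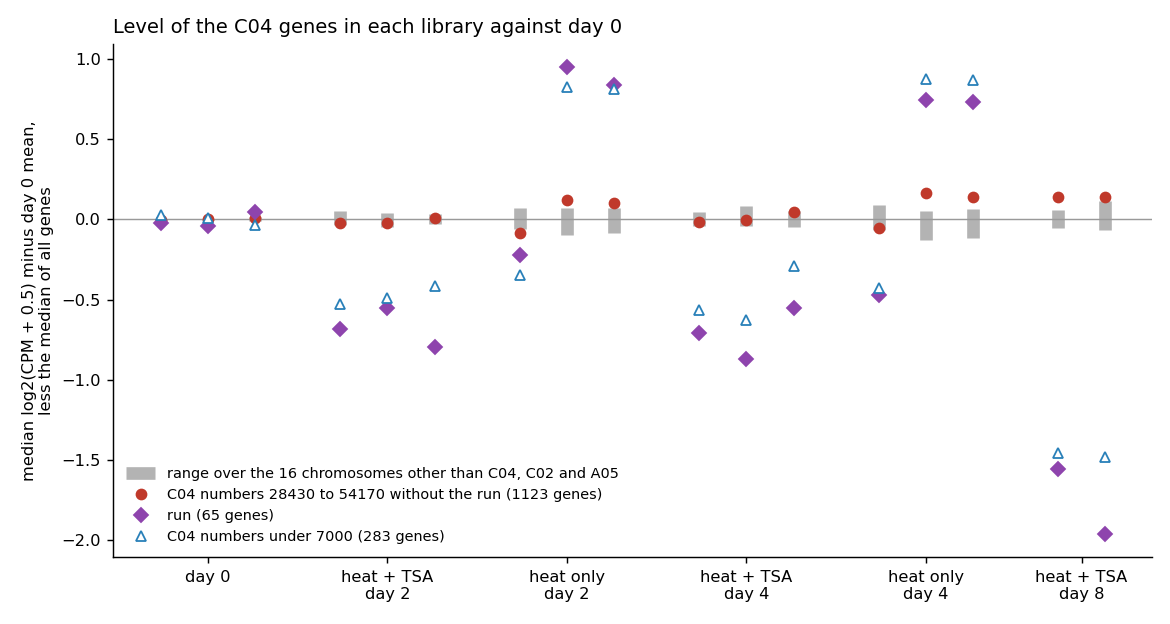
Each column is a library; the vertical axis is the median log2(CPM + 0.5) of a gene group minus its day 0 mean, less the median of all genes, and grey bars span the 16 chromosomes other than C04, C02 and A05. The 1123 genes outside the run stay within 0.17 of 0, while the 65 genes of the run follow the first C04 numbers, high in replicates 2 and 3 of the heat-only groups and lowest in TSA day 8.

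The stretch that behaved differently lay near the end of the number range. A running median over 7 genes fell under -0.8, as the mean of the day 2 and day 4 differences of heat-only replicate 1, from BnaC04g51770D to BnaC04g53340D. This run spans 158 IDs, of which 116 met the count minimum and 65 were at 1 CPM or more. Its ends were set by these differences, so the following values describe it and are not a test. The median difference of replicate 1 was -1.18 at day 2 and -1.40 at day 4, with 62 and 56 of the 65 genes below 0, against -0.21 and -0.27 for the 1123 genes outside. At day 2, 41 of the 65 genes were lower in replicate 1 by more than 1 log2 unit, and at day 4, 44 were. Of the 1123 genes outside, 50 at day 2 and 161 at day 4 were lower by that much, and 807 and 762 lay below 0. Of the 65, 60 (92.3%) were below both other replicates at day 2, 53 (81.5%) at day 4 and 52 (80%) on both days, beside the 42.9%, 43.3% and 20.4% of all genes.

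Just inside the lower edge, BnaC04g51770D had a difference of -1.31 at day 2 and -1.85 at day 4, and BnaC04g51780D of -0.94 and -0.61. BnaC04g51800D, also inside, did not go with the run, at 0.01 and 0.32. Just outside it, BnaC04g51730D and BnaC04g51720D went with the run, at -1.21 and -2.06 at day 2, while BnaC04g51710D did not, at -0.25. At the upper edge BnaC04g53340D was at -1.80 and -1.27 inside. BnaC04g53390D outside was at -0.18 and 0.22. On this reading 2 genes before the lower edge went with the run, and none of those named after the upper edge did.

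**Figure D3:**
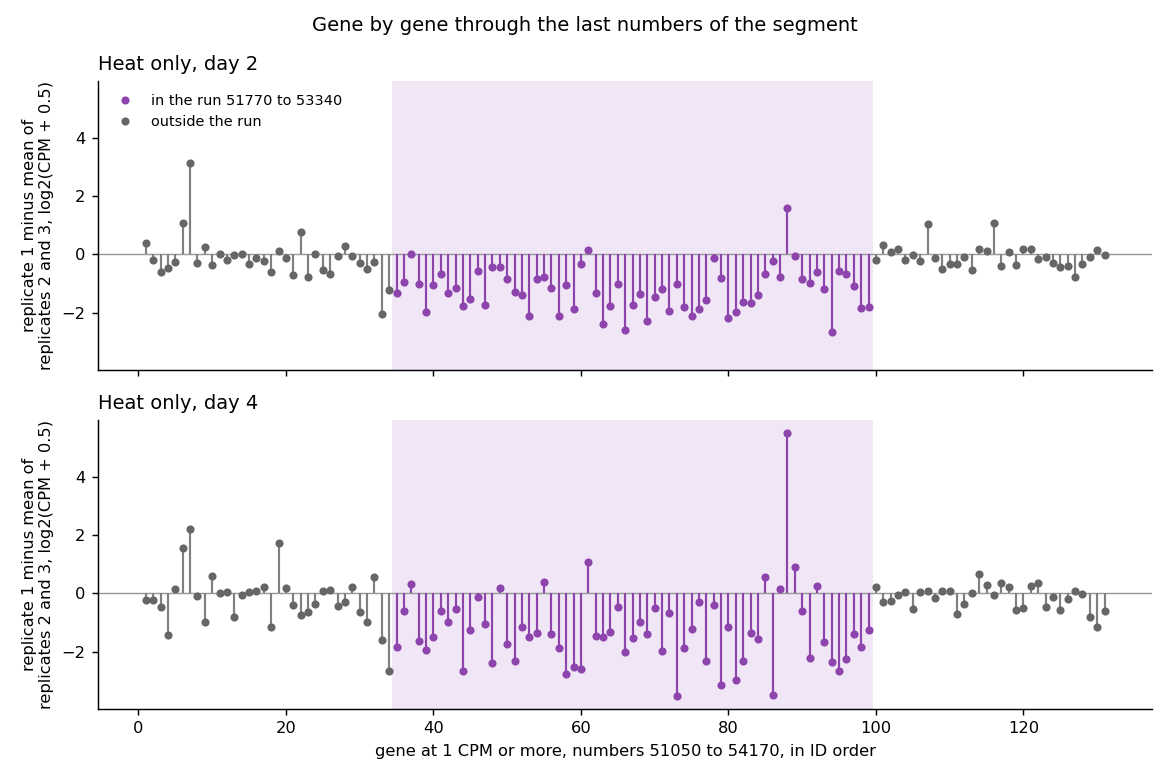
Each stem is a C04 gene at 1 CPM or more from BnaC04g51050D to the end of the range, in ID order; the vertical axis is heat-only replicate 1 minus the mean of replicates 2 and 3 at day 2 (top) and day 4 (bottom). Genes in the shaded run lie mostly between -3 and 0, and BnaC04g53040D stands out above 0, at 1.59 and 5.5.

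In level, the median of the 65 genes was 1.88, 1.90 and 2.38 CPM in the 3 libraries of TSA day 2, against 2.61, 8.99 and 8.15 CPM in heat-only day 2. At day 4 it was 1.92, 1.94 and 2.83 CPM with TSA, against 2.65, 7.76 and 7.60 CPM in heat-only. Replicate 1 of heat-only was just above the TSA libraries at day 2 and within their range at day 4, and replicates 2 and 3 were well above all of them. Day 0 lay at 2.99, 3.12 and 2.62 CPM, and TSA day 8 at 0.106 and 0.153 CPM, a level under or near that of 3 counts. The 1123 genes outside the run had medians of 3.93 to 6.14 CPM in every library, TSA day 8 included.

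The low level in TSA day 8 was a matter of many genes. Of the 116 genes of the run, 65 (56.0%) had no count in TSA day 8 replicate 1 and 60 (51.7%) in replicate 2, where 24.0% and 22.1% of the other genes of the segment had none. In day 0 replicates 1 and 2, 19 of the 116 (16.4%) had none in each, close to the 17.0% and 18.7% of the other genes. Totals were 14142177 and 21839207 counts in TSA day 8, against 27496445 and 20851018 in those day 0 libraries. Against day 0, less the median of all genes, the 65 genes lay at -1.56 and -1.96 in TSA day 8, between -0.87 and -0.55 in the 6 other TSA libraries, at -0.22 and -0.47 in heat-only replicate 1, and between 0.73 and 0.95 in the other heat-only libraries.

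In that order of libraries the run was like the first C04 numbers and unlike the segment's other genes. The C04 genes numbered under 7000 lay at -1.46 and -1.48 in TSA day 8, between -0.63 and -0.29 in the other TSA libraries, at -0.35 and -0.43 in heat-only replicate 1, and between 0.81 and 0.88 in the other heat-only libraries. The first A05 genes lay between 0.20 and 0.35 in TSA day 2 and day 4, at 0.09 and 0.10 in heat-only replicate 1 and between -0.38 and -0.20 in the other heat-only libraries. In TSA day 8 they were at 0.06 and 0.04, near day 0, where the C04 genes were lowest.

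Gene order in another assembly bears on these places. The reference table used here, RefSeq's annotation of assembly Da-Ae, lists 83 of the 2575 IDs as symbols, 77 of them on its chromosome C4. All 67 of the segment's genes in the table lie on C4, and the 63 numbered below BnaC04g51050D lie after all 84 lower-numbered C04 IDs, with 55 of 62 steps between neighbours in upward order. The 5 later IDs listed on C4 do not follow them. BnaC04g52390D, with no count, lies between BnaC04g00170D and BnaC04g01240D, and BnaC04g52470D lies between BnaC04g02130D and BnaC04g02600D. Both have numbers inside the run. BnaC04g52470D had only 54 counts over the 17 libraries, so neither is among the run's 65 genes at 1 CPM or more. BnaC04g53490D and BnaC04g53660D, with numbers just after the run, lie between BnaC04g07180D and BnaC04g07710D, and BnaC04g54100D lies between BnaC04g10900D and BnaC04g11100D. In that assembly the listed IDs with the last numbers therefore lie between BnaC04g00170D and BnaC04g11100D. Only the 2 whose numbers fall in the run lie among the C04 numbers under 7000, and the others lie among numbers above 7000. The word distal thus holds in that assembly for the 63 lower-numbered IDs listed and not for the later ones. The builds differ, so no positions are given, and 5 IDs are few.

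BnaC04g51940D was the third most abundant gene of the run. It had 18.4, 19.5 and 18.3 CPM in TSA day 2, against 56.8, 174 and 153 CPM in heat-only day 2. With TSA at day 4 it had 20.6, 14.3 and 17.1 CPM, against 47.6, 103 and 124 CPM in heat-only. Heat-only replicate 1 was the lowest of its group both times and still above every TSA library, unlike the run's median at day 4. In TSA day 8 it had 4.04 and 3.82 CPM, against 21.9, 22.6 and 14.2 CPM at day 0. It fell with TSA at day 2 (log2 fold change -2.77 ± 0.38 SE, adjusted p = 1e-05) and at day 4 (-2.40 ± 0.38 SE, adjusted p = 3.93e-05), and in TSA day 8 against day 0 (-2.34 ± 0.46 SE, adjusted p = 0.000377, all by edgeR's quasi-likelihood test with Benjamini-Hochberg adjustment).

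BnaC04g52710D had 6.77, 4.94 and 9.19 CPM in TSA day 2, against 16.4, 69.8 and 74.4 CPM in heat-only day 2. It had 0 and 0.0382 CPM in TSA day 8, against 63.2, 67.7 and 65 CPM at day 0. Groups did not overlap in either comparison, but heat-only replicate 1 was nearer to the TSA libraries than to its fellow replicates. BnaC04g53170D had the lowest difference of the run at day 2, with 8.49 CPM in heat-only replicate 1 against 56.0 and 56.7 CPM in replicates 2 and 3, and no count in TSA day 8. BnaC04g52890D lay at -1.97 at day 2 and -2.98 at day 4, with 5.64 CPM in heat-only day 4 replicate 1 against 59.6 and 38.6 CPM in replicates 2 and 3.

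Not all members of the run were low in heat-only replicate 1 or fell with TSA. BnaC04g53040D had 33.9 CPM in heat-only day 4 replicate 1, against 0.267 and 0.248 CPM in replicates 2 and 3, and 119, 119 and 13.0 CPM in TSA day 4. At day 4 replicate 1 was the one heat-only library within the TSA range. BnaC04g51980D had 22.7, 23.4 and 27.3 CPM in TSA day 2, against 17.6, 23.0 and 24.4 CPM in heat-only day 2, and the groups overlapped (adjusted p = 0.469, edgeR). At day 4 it had 23.5, 27.8 and 32.4 CPM with TSA, against 12.9, 10.2 and 12.7 CPM in heat-only, without overlap, and rose by 1.23 ± 0.21 log2 units (SE, adjusted p = 8.22e-05, edgeR). BnaC04g51860D had 34.4, 37.3 and 40.3 CPM in TSA day 2, against 12.7, 27 and 26.5 CPM in heat-only day 2. All 3 TSA libraries were higher, but the test did not pass (log2 fold change 0.75 ± 0.35 SE, adjusted p = 0.072, edgeR).

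Across the segment, adding TSA to heat called about as many genes as elsewhere in the genome. Calls are genes with adjusted p below 0.05 by edgeR's quasi-likelihood test, with Benjamini-Hochberg adjustment over 64330 genes. Of these 1549 belong to the segment, and the filter on low counts left out its other members. For TSA against heat-only at day 2, 1044 of 1549 (67.4%) were called, beside 66.4% of all genes. Of these, 484 (31.2%, beside 34.8%) rose and 560 (36.2%, beside 31.6%) fell. The median log2 fold change was -0.15, against 0.06 over all genes. With library totals as the scaling 66.0% of the called genes were higher, instead of 46.4%, and the median of all genes was 0.72, but the segment stayed 0.25 below it, against 0.21 with TMM.

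At day 4, 1052 genes (67.9%, beside 67.6%) were called for TSA against heat-only. Of these, 572 (36.9%, beside 40.3%) rose and 480 (31.0%, beside 27.3%) fell, with a median of 0.25 against 0.44 over all genes. With library totals 77.8% of the calls were higher, instead of 54.4%, and with RLE factors 47.2%. With replicate 1 of both heat-only groups left out, a choice made after seeing the data, the medians of the segment were below those of all genes by 0.28 at day 2 and 0.26 at day 4, in place of 0.21 and 0.19. The day 4 balance then turned, with 454 genes higher (28.9%, beside 32.8% of all genes) and 561 lower (35.7%, beside 30.8%).

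The run leaned far more than the rest. Of its 86 genes tested, 13 (15.1%) rose and 58 (67.4%) fell with TSA at day 2, and 11 (12.8%) rose and 42 (48.8%) fell at day 4. Outside it, 470 of 1463 (32.1%) rose and 502 (34.3%) fell at day 2, and 561 (38.3%) rose and 438 (29.9%) fell at day 4. Without the run the segment's median was still 0.14 below that of all genes at day 2 and 0.13 below at day 4. The run's median log2 fold change was -1.79 at day 2 and -0.97 at day 4. With library totals the day 4 median of the run changed sign, to 0.22, where that of all genes was 1.58.

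Heat alone against untreated microspores, which uses the same heat-only day 2 libraries, called 872 genes (56.3%, beside 56.4%), with 528 (34.1%, beside 31.1%) higher and 344 (22.2%, beside 25.3%) lower. With library totals 36.3% of the calls were higher, instead of 60.6%, and with upper-quartile factors 50.4%. In the run, whose ends were set within these heat-only libraries, 30 of 86 (34.9%) rose and 8 (9.3%) fell. The median over the segment exceeded that of all genes by 0.19, and by 0.28 with replicate 1 of the heat-only groups left out. TSA day 8 against day 0, with the same day 0 libraries, called 930 genes (60%, beside 58.1%), with 485 (31.3%, beside 29.0%) higher and 445 (28.7%, beside 29.2%) lower. Here the run was the exception, with 6 genes (6.98%) higher and 54 (62.8%) lower and a median of -3.28, while outside it 479 (32.7%) rose and 391 (26.7%) fell.

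**Figure D4:**
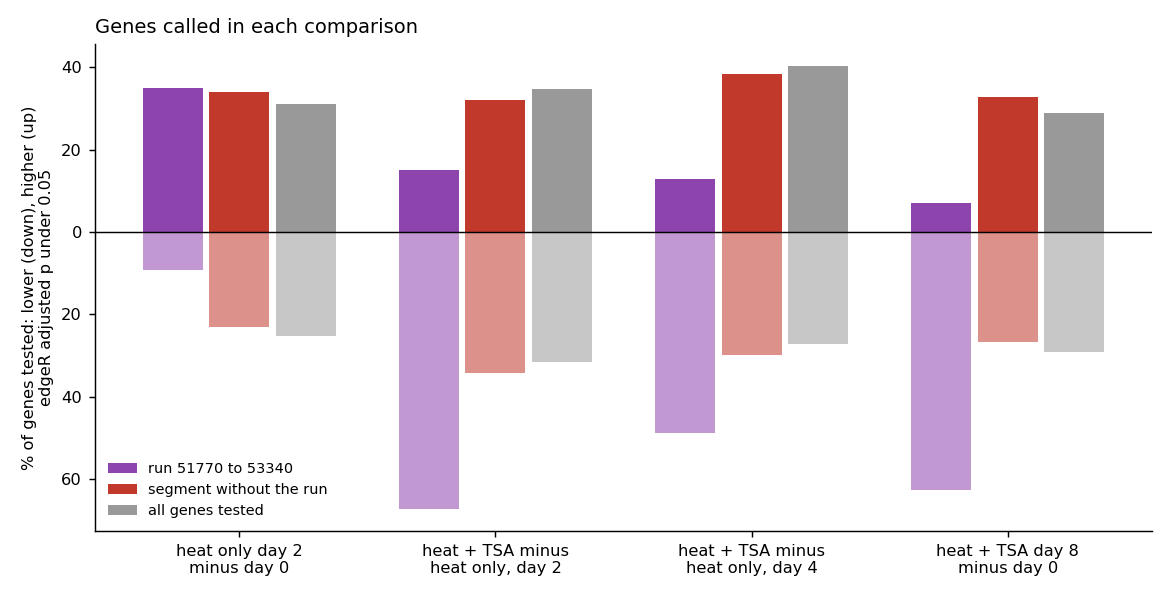
Bars give the percent of genes tested that were higher (above the axis) or lower (below it) in 4 comparisons, at an edgeR adjusted p under 0.05. In the run (86 genes) 67.4% fell with TSA at day 2 and 62.8% fell in TSA day 8 against day 0, while the 1463 other genes of the segment stay near all 64330 genes.

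Over time the segment also kept to the background. From heat-only day 2 to day 4, 721 genes (46.5%, beside 45.4%) were called in day 4 against day 2, with 369 (23.8%, beside 22.2%) higher and 352 (22.7%, beside 23.2%) lower. That split depended on the scaling, with 71.3% of calls higher by RLE factors and 24.7% by library totals, instead of 51.2%. TSA day 4 against day 2 called 93 (6.0%, beside 6.4%), with 67 higher (4.33%, beside 4.04%) and 26 lower (1.68%, beside 2.36%). The effect of TSA differed between day 4 and day 2 for 361 genes (23.3%, beside 24.7%), with 215 higher (13.9%, beside 14.3%) and 146 lower (9.43%, beside 10.5%). RLE factors turned this split round, to 32.9% higher instead of 59.6%, and moved the median of all genes to -0.26 instead of 0.08. Without replicate 1 of both heat-only groups, 67.4% of the calls were higher for heat-only day 4 against day 2, and 35.9% for the difference of the TSA effects. The count at TSA day 4 against day 2 was 18 (1.17%) without TSA day 2 replicate 1, where 2.1% of all genes were called.

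Of the 10 most abundant genes of the segment, 4 were called higher and 4 lower with TSA than in heat-only at day 2. Of all genes tested 34.8% were called higher and 31.6% lower. BnaC04g30640D, the first of them, had 2313, 3370 and 2067 CPM in TSA day 2, against 49.1, 118 and 136 CPM in heat-only day 2. At day 4 it had 6533, 6310 and 6709.6 CPM with TSA, against 371, 1256 and 819.9 CPM in heat-only. Every TSA library was above every heat-only library of its day, heat-only replicate 1 was lowest in both, and at day 0 the gene was at 1.05 to 2.37 CPM. It rose with TSA by a log2 fold change of 4.67 ± 0.52 (SE, adjusted p = 6.21e-07) at day 2 and 3.00 ± 0.48 (SE, adjusted p = 3.5e-05) at day 4 (edgeR). In TSA day 8 it was at 479 and 675 CPM, against 1.16, 2.37 and 1.05 CPM at day 0 (adjusted p = 8.97e-09, edgeR).

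BnaC04g45790D was the gene of TSA day 8, with 5559 and 7099 CPM there, against 0.216, 0.467 and 0.262 CPM at day 0. It had 280.5, 289 and 225 CPM in TSA day 2, against 8.12, 29.6 and 31.9 CPM in heat-only day 2, without overlap (log2 fold change 3.5 ± 0.57 SE, adjusted p = 4.77e-05, edgeR). At day 4 it had 452, 449 and 301 CPM with TSA, against 33.9, 206 and 116 CPM in heat-only. That call (1.75 ± 0.53 SE, adjusted p = 0.00804, edgeR) was lost without heat-only day 4 replicate 1, where the log2 fold change was 1.00, and without replicate 3, where it was 1.43.

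BnaC04g39100D had 492, 599 and 783 CPM in TSA day 2, against 4.54, 19.3 and 17.3 CPM in heat-only day 2, a rise of 5.5 ± 1.05 log2 units (SE, adjusted p = 0.000272, edgeR). At day 4 its 2784, 2829 and 2638 CPM with TSA were again above the 146, 1131 and 808 CPM of heat-only, but the test did not pass (adjusted p = 0.0608, edgeR). In TSA day 8 its libraries disagreed, at 1.59 and 68.2 CPM. BnaC04g44790D had 239, 276 and 194 CPM in TSA day 2, against 38.3, 43.8 and 44.6 CPM in heat-only day 2, and rose by 2.48 ± 0.23 log2 units (SE, adjusted p = 6.99e-08, edgeR). It rose at day 4 as well, with 303, 358 and 324 CPM against 55.9, 91.5 and 81.4 CPM (2.10 ± 0.22 SE, adjusted p = 4.27e-07, edgeR).

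The next 4 were highest in the heat-only groups. BnaC04g36920D had 4.35, 4.73 and 15.7 CPM in TSA day 2, against 595, 403 and 415 CPM in heat-only day 2. The TSA day 4 libraries had 14.2, 32.5 and 16.7 CPM, against 1149, 2117 and 1761 CPM in heat-only. BnaC04g51500D was also high in heat-only, with 1.5, 1.07 and 6.58 CPM in TSA day 2, against 442, 250.5 and 264 CPM in heat-only day 2. At day 2 replicate 1 of heat-only was the highest of its group for both genes, at day 4 the lowest. With TSA at day 2 the log2 fold change was -5.85 ± 0.72 for BnaC04g36920D and -6.76 ± 0.73 for BnaC04g51500D (SE, adjusted p = 3.93e-06 and 9.16e-07, edgeR).

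BnaC04g53180D and BnaC04g53190D, with neighbouring numbers in the run, were near silent outside heat alone. BnaC04g53190D had 0.118, 0.153 and 0.0567 CPM in TSA day 2, against 222, 357 and 352 CPM in heat-only day 2. The TSA day 4 values were 1.81, 4.35 and 0.363 CPM, against 321, 1621 and 1470.2 CPM in heat-only. BnaC04g53180D had 0.588, 0.307 and 1.53 CPM in TSA day 2, against 162, 248 and 238 CPM in heat-only day 2, and 2.70, 3.65 and 1.49 CPM in TSA day 4, against 265, 1777 and 1563 CPM in heat-only day 4. All heat-only libraries were above all others for both genes, and at day 4 replicate 1 differed from replicates 2 and 3 by -2.26 log2 units for BnaC04g53190D and -2.65 for BnaC04g53180D. Both fell with TSA at day 2 and day 4, with adjusted p from 1.97e-07 to 4.63e-07 (edgeR). Their sequences were not compared. Should they share reads, the split between them is unknown and each single level is uncertain.

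The last 2 of the 10 were expressed everywhere. BnaC04g47870D had 217, 199.7 and 244 CPM in TSA day 2, against 195, 263 and 263 CPM in heat-only day 2, with overlap (adjusted p = 0.552, edgeR). At day 4 it had 198, 229.5 and 231 CPM with TSA, against 114, 102 and 113 CPM in heat-only, without overlap, a rise of 1.00 ± 0.18 log2 units (SE, adjusted p = 0.000129, edgeR). BnaC04g42010D had 264, 217 and 305 CPM in TSA day 2, against 250.2, 466 and 474 CPM in heat-only day 2 (adjusted p = 0.0697, edgeR). Its day 4 groups overlapped too (adjusted p = 0.824, edgeR). Its levels were highest at day 0, at 616, 591 and 682 CPM.

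**Figure D5:**
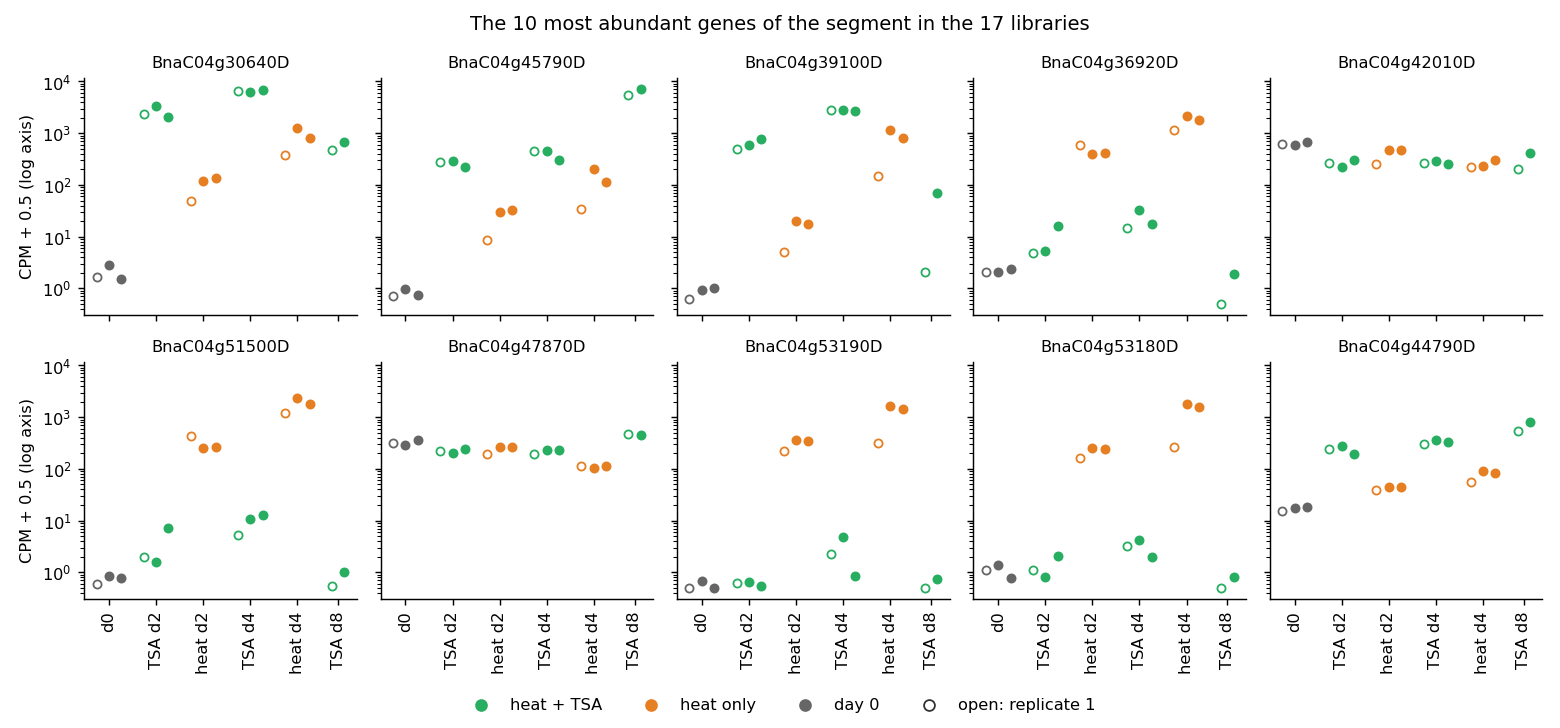
Each panel is 1 of the 10 most abundant genes of the segment, with CPM + 0.5 on a log axis and the 17 libraries grouped along the horizontal axis; open points are replicate 1. BnaC04g30640D, BnaC04g45790D, BnaC04g39100D and BnaC04g44790D are higher with TSA than with heat alone at day 2, and BnaC04g36920D, BnaC04g51500D, BnaC04g53190D and BnaC04g53180D are lower.

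Single genes also ran against the segment in heat-only replicate 1. Among genes with a mean of at least 10 CPM, BnaC04g31520D had 31.0 CPM in day 2 replicate 1, against 4.56 and 4.19 CPM in replicates 2 and 3, and 70.9 CPM in day 4 replicate 1, against 10.7 CPM in each of the others. BnaC04g51210D had 21.0 CPM against 2.20 and 1.69 CPM at day 2, and 22.6 CPM against 3.74 and 5.45 CPM at day 4. BnaC04g32810D and BnaC04g34970D were also higher there, by 2.22 and 2.19 log2 units at day 2. These 4 and BnaC04g53040D were the 5 most opposite to the segment. The 5 most with it, BnaC04g39100D, BnaC04g53170D, BnaC04g39030D, BnaC04g52890D and BnaC04g34810D, lay between -2.66 and -1.89 at day 2 and between -2.98 and -2.33 at day 4.

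At the ends of the number range, values were mixed on both sides. Just inside, BnaC04g28430D lay at 0.69 and -0.36 in heat-only replicate 1 at day 2 and day 4, and BnaC04g28440D at -1.30 and -1.41. Just outside, BnaC04g28400D lay at -0.35 and 0.11, with 31.4 CPM in day 2 replicate 1 against 39.2 and 41.1 CPM in replicates 2 and 3. At the far end BnaC04g54170D, inside, lay at -0.03 and -0.62, and BnaC04g54230D, outside, at 0.23 and -1.04. BnaC04g54170D and BnaC04g54150D were also highest in the heat-only groups. BnaC04g54170D had 0.0588, 0.0307 and 0.113 CPM in TSA day 2, against 199, 204 and 203 CPM in heat-only day 2, and its heat-only day 2 replicates were within 5 CPM of each other.

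The 10 most abundant genes of the segment among those listed for Da-Ae, where the table gives no product, were read in the same way. BnaC04g36530D, the first, had 17.9, 18.8 and 23.1 CPM in TSA day 2, against 33.9, 41.9 and 38.3 CPM in heat-only day 2, without overlap, and heat-only replicate 1 was the lowest of its group at both days. At day 2 heat-only replicate 1 was below the mean of the others for 8 of the 10 and at day 4 for 7, with BnaC04g34580D at 0.61 and -0.91 the most changeable. Over all genes at 1 CPM or more the median difference was -0.01 at day 2 and -0.04 at day 4. At least as many of all genes thus lay below that mean as above it, and 10 genes are few. BnaC04g44060D was near silent with TSA, at 0.235, 0.123 and 0.567 CPM in TSA day 2, against 33.4, 40.9 and 37.5 CPM in heat-only day 2.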

How the data were processed

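Messenger RNA was sequenced per the labels' protocols with TruSeq libraries after DNase treatment. The authors deposited raw counts per gene ID, which were used; their tables of log2 CPM and fold changes were not used. For the aligner, counter, genome build, annotation and handling of reads shared by near-identical A and C copies, each is not given in the sources used here. Genes were filtered with filterByExpr, scaled by TMM and tested with edgeR 4.0.16 in R 4.3.3 (quasi-likelihood, robust, 17 libraries, 1 coefficient per group, two-sided), with Benjamini-Hochberg adjustment over 64330 genes and a threshold of 0.05. Levels are CPM, and differences are of log2(CPM + 0.5). Windows held 30 genes, fewer in the last of a stretch. The members and lists were chosen with earlier results of these data known. Named genes were the 10 most abundant, those at the ends of the range, the 5 most with and most against the segment above 10 CPM, and up to 10 in the reference table, plus members of the run, which were added after values were seen. The fits were tested on simulated data. DESeq2 1.42.0, other scalings and filters, left-out replicates and a replicate block were alternatives. In no comparison did every pair of same-numbered libraries have a correlation of deviations over 0.1, though all 3 were above 0 for day 4 against day 2 with heat alone and with TSA; the labels give d0, TSA day 2 and TSA day 8 libraries of 1 number the same lane. No sequence is printed.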

Additional observations from a re-analysis of the deposited data

Results flagged for a closer look

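BnaC04g47870D was marked because the effect of TSA differed between days. The effect at day 4 exceeded that at day 2 by 1.12 ± 0.25 log2 units (SE, adjusted p = 0.00482, edgeR's quasi-likelihood test of the interaction), with TSA above heat-only in all 3 libraries at day 4 and overlap at day 2.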

How the results depend on the processing

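The counts of called genes in the segment stayed within 1.5 times the reported ones under RLE, upper-quartile and library-total scaling, DESeq2 and a looser filter. With 1 library left out, TSA day 4 against day 2 gave 18 to 63 calls in place of 93 (18, 56 and 54 without TSA day 2 replicate 1, 2 and 3, and 49 and 37 without TSA day 4 replicate 1 and 2), where 2.1% to 5.08% of all genes were called in place of 6.4%, and the difference of the TSA effects between days gave 208 to 396 in place of 361, with 15.2% to 25.9% of all genes in place of 24.7%; it was 208 without heat-only day 4 replicate 2, 214 and 235 without heat-only day 2 replicate 2 and 3. The other 5 comparisons stayed within 1.5 times. No call of the 10 most abundant genes in TSA against heat-only reversed its sign. Medians over sets of genes did. For TSA against heat-only at day 4, the run's median went from -0.968 to 0.218 with library totals. The segment's went from 0.248 to -0.065 without replicate 1 of both heat-only groups. With RLE factors the segment's median difference of the TSA effects between days went from 0.087 to -0.248. The share of calls that were higher moved by over 10 points with scaling in several comparisons: TSA day 4 against day 2 had 72% higher, against 53.7% under the upper-quartile scaling and 45.7% under library totals, and the difference of effects 82.5% with library totals. The cause was not tested. With the replicate number as a block, TSA against heat-only gave 1050 calls at day 2 and 1055 at day 4, and the block changed no other call count by over 1.5 times; the pairing is by number only, apart from shared lanes of day 0 and TSA day 8, where it gave 925 calls in place of 930. Low levels in day 0 replicate 3 are limited by its depth.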
